A study of Homo sapiens with 6 samples.

Results

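The genes described here make, bind and break down hyaluronan. They are the synthases HAS1, HAS2 and HAS3, the receptors CD44 and HMMR, the hyaluronidases HYAL1, HYAL2 and HYAL3, and the hyaluronan-degrading proteins CEMIP and CEMIP2. They were taken by name from a table of 62700 gene rows, in which all 10 were found. The table holds estimated RNA-seq counts of A673, an Ewing sarcoma cell line driven by the fusion oncoprotein EWS-FLI1. The 3 parental control libraries have the genotype EWS-FLI1 wildtype, and the other 3 libraries are labelled EWS-FLI1 knockout. All 6 came from cells in DMEM with fetal bovine serum. The labels give no guide, no time after the knockout and no word on clonal or pooled knockout cells, so a difference between clones and the loss of the fusion cannot be told apart. Separate cultures are not stated for the replicates, and the p-values cover library-to-library spread that may be technical.

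Hyaluronan is an unsulfated chain of alternating glucuronic acid and N-acetylglucosamine. Synthases in the plasma membrane build it from UDP-sugars and extrude it into the pericellular matrix, where it is a main component of fibroblast and tumour stroma. CD44 is its principal cell surface receptor, and hyaluronidases and CEMIP cut it into shorter chains. HMMR, also named RHAMM, was described as a hyaluronan-mediated motility receptor and is also a protein of the mitotic spindle.

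Each library summed to between 301605666 and 342624492 estimated counts. Levels are counts per 1000000 (CPM) after TMM scaling, a scaling that assumes most genes do not change, and the counting floor used, 3 counts, is 0.00752 to 0.0117 CPM depending on the library. Fold changes are log2 ratios of knockout over parental libraries with the standard error (SE) of edgeR's quasi-likelihood fit, and a gene "rose" or "fell" when its Benjamini-Hochberg adjusted p over all 28485 tested genes was under 0.05. With TMM scaling FLI1 was higher (0.38, SE 0.050) and EWSR1 lower (-0.26, SE 0.047) in knockout libraries. With libraries scaled by total count only, FLI1 was at -0.04 (edgeR adjusted p = 0.384) and EWSR1 at -0.68. Counts per gene add fusion and normal transcripts, so these values check nothing about the deletion. Of 10 Ewing sarcoma marker genes all fell, from 2766 to 2811 CPM in sum to between 524.2 and 563.8 CPM. Most of that sum was CCND1, with means of 1757 CPM in parental and 504.4 CPM in knockout libraries. The log2 fold changes of the 10 ranged from -6.83 (PRKCB) to -1.80 (CCND1), with a median of -4.96. Among fibroblast marker genes 9 of 9 rose, with a median of 7.57. Of all tested genes 37.5% fell and 36.3% rose. The summed level of 7 blood cell markers was at most 2.28 CPM in any library, and that of 6 endothelial markers lay between 34.1 and 47.5 CPM, mostly EMCN. Of the endothelial markers PECAM1, VWF and TIE1 rose, EMCN and CLDN5 fell, and CDH5 did not pass. Among 7 epithelial markers KRT8 and KRT18 rose and EPCAM fell. In bulk RNA a changed share of cells and a changed amount of RNA per cell cannot be told apart.

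Promoter sequences are shown first for CEMIP, HAS3, CD44 and HMMR, members with changes of many fold, because EWS-FLI1 is an ETS factor and ETS factors bind a GGAA core. They are RefSeq plus strand sequences (GRCh38.p14) from the 250 bases before the annotated start. CEMIP and HAS3 are shown whole, although the last 27 bases of the CEMIP window lie in an annotated exon. Pieces of 30 bases stand for CD44 and HMMR, whose windows lie wholly in exons of other transcripts. Windows of 9 of the 10 members were searched, and the promoter of HAS2 was not analysed here. They were searched on both strands, with overlapping matches counted. GGAA on either strand, TTCC when read on the printed strand, is in capitals for CEMIP, HAS3 and CD44, together with TATAAA for CEMIP. For HMMR, CCAAT and TTTGAA on either strand are in capitals, since these elements are known from promoters of mitotic genes. CEMIP is shown over chr15:80779120-80779369, HAS3 over chr16:69107290-69107539, CD44 over chr11:35139141-35139170, and HMMR over chr5:163460552-163460581 and chr5:163460595-163460624.
CEMIP: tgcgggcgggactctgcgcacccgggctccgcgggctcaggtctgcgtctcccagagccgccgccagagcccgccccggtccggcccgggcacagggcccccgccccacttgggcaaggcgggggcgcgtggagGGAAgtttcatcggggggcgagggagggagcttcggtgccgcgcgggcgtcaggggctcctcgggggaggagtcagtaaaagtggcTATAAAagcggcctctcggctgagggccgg
HAS3: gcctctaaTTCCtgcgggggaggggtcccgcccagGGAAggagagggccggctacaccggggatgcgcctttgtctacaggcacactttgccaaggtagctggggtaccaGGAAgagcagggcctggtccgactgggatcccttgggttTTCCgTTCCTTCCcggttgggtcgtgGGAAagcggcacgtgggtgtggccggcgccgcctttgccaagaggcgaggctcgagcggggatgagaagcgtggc
CD44: ataaaaactgcagccaacTTCCgaggcagc
HMMR, CCAAT part: ggtttggctttCCAATTGGctaacgccggg
HMMR, TTTGAA part: gtggggagaTTTGAATTTGAAaccggtagg

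GGAA was common in such windows. Of 34943 promoters, 92.74% held it at least once in the 250 bases before the start, with a median of 3 matches. CEMIP had 1 match, CD44 had 2 and HMMR had 5. HAS3 and HYAL2 had 7 each, a number reached by 4.09% of promoters. The windows of HAS1, HYAL1, HYAL3 and CEMIP2 had between 1 and 5. The tandem GGAAGGAA stood in 3.065% of promoters, and in those of HAS3 and CEMIP2 among the members with a window. CEMIP held TATAAA, as did 10.75% of promoters. No member window held TGANTCA, the AP-1 site, which 6.591% of promoters have. HMMR had 5 CCAAT matches, 2 of which overlap in CCAATTGG, and 0.321% of promoters had as many. Its tandem TTTGAATTTGAA, found in 0.0143% of promoters, makes up 2 TTTGAA matches. That tandem and the match numbers 5 and 7 were taken from these members' own windows, so the low shares are descriptive only. These are matches of letters in the reference and show no binding.

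Of the 10 hyaluronan genes 8 rose, 1 fell and 1 did not pass in the knockout libraries. Of all tested genes 73.8% passed, with 36.3% risen and 37.5% fallen. The members' median log2 fold change was 0.997 against -0.06 for all tested genes. Groups did not overlap for 9 of the 10 members, of which 8 were higher in knockout libraries and 1 lower. Over all tested genes that share was 76.7%, with 37.1% higher and 39.5% lower. With libraries scaled by total count only, which moves the median of all genes by -0.42, 5 members rose and 2 fell. The members thus divide into changes of many fold in CD44, CEMIP, HAS2, HAS3 and HMMR, a 2.13-fold higher HYAL2, and small or scaling-dependent changes in HAS1, HYAL1, HYAL3 and CEMIP2.

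**Figure D1:**
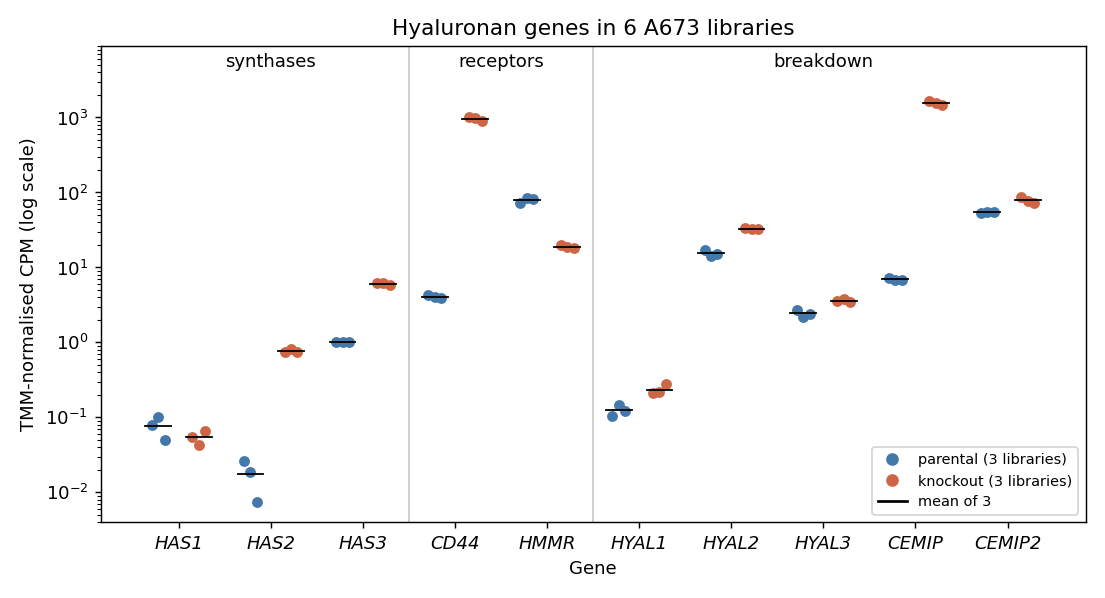
Level of each hyaluronan gene in every library, in TMM-normalised CPM on a log axis, with points for the 3 parental and 3 knockout libraries and a line at each mean. CD44 and CEMIP lie between 904.8 and 1650 CPM in the knockout libraries, HMMR is lower there, and HAS1 is the gene whose groups overlap.

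Synthase RNA was low in both genotypes, and HAS3 made up most of it. HAS3, on chromosome 16 from 69105564 to 69118719 (GRCh38), makes hyaluronan chains at the plasma membrane. Parental libraries had 1.02, 1.02 and 1.01 CPM of it and knockout libraries 6.18, 6.21 and 5.83 CPM. Every knockout library was about 6 times as high as every parental one, and HAS3 rose by 2.58 on the log2 scale (SE 0.090, edgeR adjusted p = 5.48e-17). HAS2, on chromosome 8, is the main synthase of embryonic and many mesenchymal tissues. Its estimated counts were 10.1, 7.03 and 3.33 in parental libraries and 192.4, 209.4 and 204.9 in knockout libraries. In CPM these were 0.0263, 0.0185 and 0.00752 against 0.751, 0.806 and 0.744. HAS2 rose by 5.44 (SE 0.28, edgeR adjusted p = 9.22e-14), with parental replicate 3 at the counting floor, and it passed the filter on low counts through the knockout libraries. Its antisense gene HAS2-AS1, which shares 201 exon bases with it, or 4.797% of its exons, did not pass (0.53, SE 0.43, adjusted p = 0.273).

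HAS1, the third synthase, was low throughout. It had 30, 38 and 20 counts in parental and 14, 11 and 18 counts in knockout libraries. The groups overlapped in CPM, and the log2 fold change of -0.49 had a 95% interval from -1.30 to 0.33 (edgeR adjusted p = 0.267). Scaled by total count, HAS1 passed as lower (-0.91, adjusted p = 0.0434). Over the 15 alternatives that tested it the adjusted p lay between 0.0434 and 0.670, and a filter at a mean of 1 CPM removed the gene.

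Per kilobase of the longest annotated coding transcript, the synthases together held 0.281 ± 0.0155 CPM per kb in parental and 1.65 ± 0.0503 CPM per kb in knockout libraries (SD, n = 3), a ratio of 5.86. HAS2 made up 2.19%, 1.51% and 0.680% of this sum in the parental libraries and 10.7%, 11.4% and 11.2% in the knockout libraries. The groups did not overlap, and the exact two-sided permutation test gave p = 0.1, the smallest value that 3 against 3 libraries allow. HAS1 took 12.8% ± 3.62 and 1.56% ± 0.376 (SD, n = 3, exact permutation p = 0.1). HAS3 took 85.8% ± 4.12 and 87.3% ± 0.412, which did not differ beyond the spread (exact permutation p = 0.6). The rise of the HAS2 share, 9.65 percentage points, was 5.28 points when the median length of each gene's transcripts was used, a choice made after the data were seen.

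**Figure D2:**
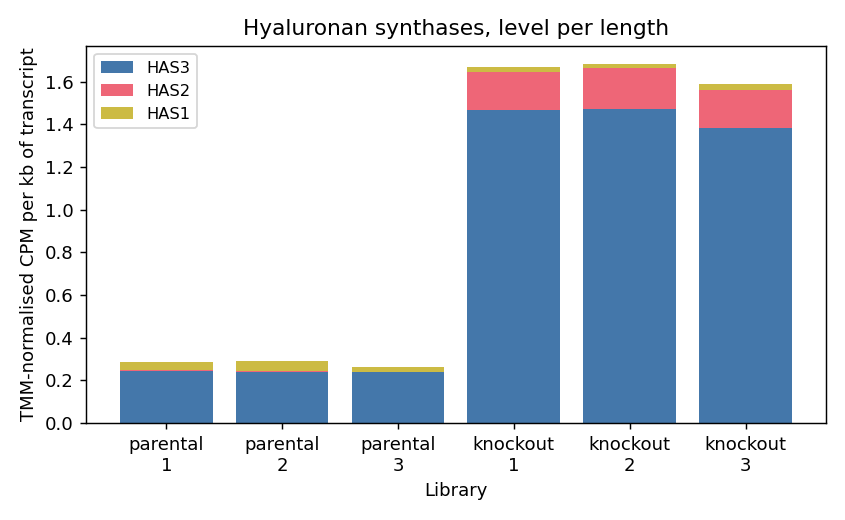
Stacked level of HAS3, HAS2 and HAS1 in each library, in TMM-normalised CPM per kb of the longest coding transcript. The bars end between 0.264 and 0.293 in parental and between 1.59 and 1.68 in knockout libraries, with HAS3 as the bulk of each.

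CD44 was the receptor with the greatest change. The gene, on chromosome 11 from 35138870 to 35232402, encodes a transmembrane glycoprotein whose link domain binds hyaluronan. It had 1644, 1533 and 1546 estimated counts in parental and 258708, 256796 and 249439 in knockout libraries. In CPM this was 4.32, 4.06 and 3.88 against 1012, 990.7 and 904.8. No parental library came near any knockout library, and CD44 took 0.0836% ± 0.00289 of all knockout counts (SD, n = 3). CD44 rose by 7.89 (SE 0.073, edgeR adjusted p = 6.51e-27), a ratio of 237. Of all tested genes, 2.42% rose by more than 6 on the log2 scale. RNA counted per gene does not tell the standard form of CD44 from forms with variable exons.

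The parental level of CD44 needs a caveat that the SE does not cover. Its parental count was 0.617% of its knockout count. Of 3251 genes with at least 20000 counts in the knockout mean, the 20 with the lowest such share kept a median of 0.586%, and CD44 was 18th from the lowest. Subtracting 0.586% of the knockout mean left 150.6, 39.2 and 52.0 parental counts, and the log2 fold change became 12.18. CD44 is itself among those 20 genes, so a small remainder was built in. The subtraction could only enlarge this rise, so the unchanged direction is no check. The size of the fold change thus depends on this step, while the knockout level hardly does.

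HMMR was the member that fell. It lies on chromosome 5 from 163460203 to 163491945 and was at 73.0, 83.7 and 82.1 CPM with the wildtype genotype but at 19.7, 18.9 and 18.1 CPM with the knockout. The lowest parental library was more than 3 times as high as the highest knockout library. HMMR fell by 2.08 on the log2 scale (SE 0.058, edgeR adjusted p = 1.14e-18), or 4.22-fold, and the knockout count was 16.2% of the parental count, far above the share described for CD44.

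Genes that act with HMMR on the spindle or mark dividing cells were lower as well, by less. The list has 16 genes, 13 lower, 2 higher and 1 without a call. Its median was -0.74 and its range -1.37 to 0.34. Of all tested genes 37.5% fell and 36.3% rose. With total counts only, falls over all genes numbered 14949 and rises 7370, so a count of falls depends on the scaling. TOP2A, the topoisomerase of dividing cells, fell by 1.37 (SE 0.055), cyclin B1 (CCNB1) by 1.06 (SE 0.049) and the mitotic kinase PLK1 by 1.04 (SE 0.048). BUB1, of the spindle checkpoint, and the kinesin KIF15 changed by -0.78 (SE 0.052) and -0.86 (SE 0.057). The 2 risen genes, FAM83D and DYNLL1, named after their values were seen, had values of 0.26 and 0.34 and were -0.17 and -0.09 with total counts only. The difference between HMMR and these genes was not tested.

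Genes beside HMMR on chromosome 5 were lower too. NUDCD2 is transcribed away from HMMR on the other strand and starts 0.063 kb from it. Its level was 49.8, 50.7 and 47.9 CPM in the parental and 14.7, 15.3 and 14.6 in the knockout libraries (-1.73, SE 0.051, edgeR adjusted p = 2.98e-18). CCNG1, a cyclin G gene with its start 22.63 kb away, was at 120.8, 132.6 and 129.7 CPM (parental) and 35.7, 36.0 and 32.8 CPM (knockout) (-1.87, SE 0.054). All knockout libraries were below all parental libraries for both neighbours, as they were for 39.5% of all tested genes.

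CEMIP showed the largest rise among the proteins of hyaluronan breakdown. It is a secreted or membrane-linked hyaluronan-binding protein needed for depolymerisation in skin and synovial fibroblasts, encoded on chromosome 15 from 80779343 to 80951776. Parental libraries had 7.29, 6.90 and 6.72 CPM of CEMIP, and knockout libraries 1650, 1541 and 1474 CPM. Its knockout counts, from 399561 to 421801, were 0.134% ± 0.00493 of those libraries (SD, n = 3). CEMIP rose by 7.80 (SE 0.070, edgeR adjusted p = 5.42e-27), a ratio of 223. As for CD44, the parental count was low enough, at 0.657% of the knockout count and 32nd from the lowest, for the kept share to matter. After its subtraction 377.2, 211.7 and 281.9 parental counts were left and the log2 fold change was 11.02.

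CEMIP2, a transmembrane relative of CEMIP on chromosome 9, changed little. It was measured at 53.4, 54.5 and 54.3 CPM (parental) and 86.2, 76.8 and 72.7 CPM (knockout). Here the knockout libraries were all higher by CPM, and the gene rose by 0.54 (SE 0.056, 95% interval 0.42 to 0.66, edgeR adjusted p = 1.96e-08). Its estimated counts before scaling, 20327 to 21668 in parental and 19904 to 22041 in knockout libraries, overlapped. Scaled by total count the change was 0.11 (adjusted p = 0.0503), so this call depends on the scaling.

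The 3 hyaluronidase genes lie side by side on chromosome 3. HYAL2, a membrane-anchored enzyme that makes the first cuts in long chains, spans 50317790 to 50322906. It was measured at 16.9, 14.3 and 15.0 CPM (parental) and 33.1, 32.5 and 33.0 CPM (knockout), without overlap. HYAL2 rose by 1.09 (SE 0.059, edgeR adjusted p = 2.00e-13), and by 0.67 with total counts only, where it also passed. It shares 509 exon bases with TUSC2 on the same strand, 11.2% of its exons, and TUSC2 rose by 0.58 (SE 0.057).

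The calls of HYAL1 and HYAL3 depended on the scaling. HYAL1, the lysosomal hyaluronidase, had 40.0, 56.1 and 49.5 counts in parental and 54.0, 56.0 and 76.0 counts in knockout libraries. In CPM it rose from 0.125 ± 0.0217 to 0.234 ± 0.0359 (SD, n = 3), or by 0.90 on the log2 scale (SE 0.25, edgeR adjusted p = 0.00253). HYAL3, whose enzymatic activity is weak or uncertain, had 2.71, 2.20 and 2.39 CPM against 3.56, 3.75 and 3.45 CPM. Its log2 fold change was 0.56 (SE 0.096, adjusted p = 2.09e-05). Neither passed with total counts only, at 0.48 (adjusted p = 0.0839) and 0.14 (adjusted p = 0.183), and their raw counts overlapped between genotypes.

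HYAL3 also shares transcribed sequence with other genes. It has 248 exon bases, 12.22% of its exons, in common with the N-acetyltransferase gene NAA80, whose start is 0.047 kb away, and 43 with IFRD2. NAA80 rose by 0.41 (SE 0.071) but was -0.02 with total counts only. IFRD2 rose by 0.18 (SE 0.055) but was lower under total-count scaling (-0.24, edgeR adjusted p = 0.000525). How the reads of these genes were divided was set by the authors' counting, so the HYAL3 value is uncertain. Further along the cluster RASSF1, a tumour suppressor gene, rose by 2.77 (SE 0.066) and GNAI2, a G protein subunit gene, by 1.47 (SE 0.052). ZMYND10 and NPRL2, named after their values were seen, lie beyond RASSF1 and fell by 0.62 (SE 0.13) and 0.22 (SE 0.062).

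**Figure D3:**
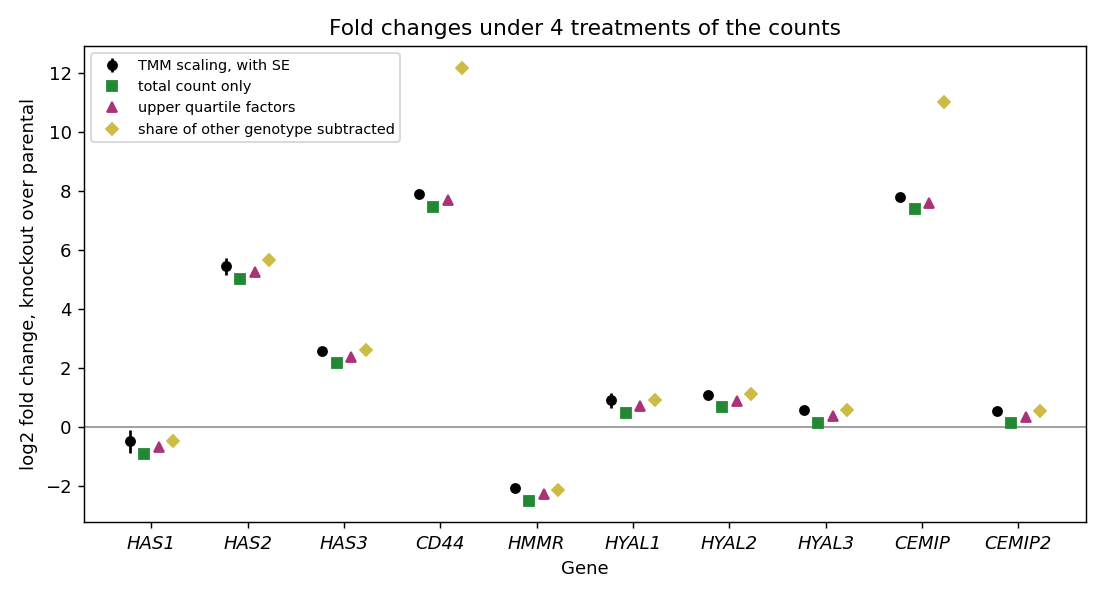
Log2 fold change of each member, knockout over parental, with TMM scaling (circles, bars show the SE), total counts only, upper quartile factors, or after subtraction of the share kept from the other genotype. The subtraction moves CD44 to 12.18 and CEMIP to 11.02, and total-count scaling brings HYAL3 and CEMIP2 to 0.14 and 0.11.

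Levels were compared between members per kilobase of the longest coding transcript. In parental libraries HMMR was highest at 25.7 ± 1.86 CPM per kb, followed by CEMIP2 at 8.29 ± 0.0940, HYAL2 at 3.80 ± 0.338, HYAL3 at 1.25 ± 0.130, CEMIP at 0.947 ± 0.0394 and CD44 at 0.712 ± 0.0387 (SD, n = 3). HAS3 came next at 0.241 ± 0.00229, and HYAL1, HAS1 and HAS2 were all under 0.06. Of these neighbours in rank, HYAL1 and HAS1 had overlapping libraries. In knockout libraries CEMIP led at 211.4 ± 12.1 CPM per kb and CD44 was next at 169.1 ± 9.89. CEMIP2 at 12.04 ± 1.06, HYAL2 at 8.10 ± 0.0694 and HMMR at 6.09 ± 0.251 followed, with HYAL3 at 1.85 ± 0.0774 and HAS3 at 1.44 ± 0.0497. HAS2, HYAL1 and HAS1 were lowest, and no neighbours in rank overlapped. The order depends on the transcript length. With the median length CD44 stood above CEMIP in knockout libraries, at 729 against 213.1 CPM per kb, and HAS3 above HYAL3. In parental libraries CD44 then stood above HYAL3 and CEMIP, at 3.07 against 1.60 and 0.955 CPM per kb. Between genotypes, CEMIP and CEMIP2 together went from 9.24 ± 0.0623 to 223.4 ± 13.1 CPM per kb, and the hyaluronidases from 5.10 ± 0.460 to 10.04 ± 0.0295 (SD, n = 3, exact permutation p = 0.1 for each, the smallest possible).

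Enzymes that make the UDP-sugar precursors mostly rose. Of 14 such genes 10 rose and 4 fell, beside 36.3% risen and 37.5% fallen of all tested genes. The median of the 14 was 0.70, and 1 of the risen, UAP1, was lower with total counts only (-0.24). Under that scaling 7370 of all genes rose and 14949 fell. UGDH, which oxidises UDP-glucose to UDP-glucuronic acid, went from 30.5, 32.8 and 30.5 CPM to 123.1, 119.4 and 111.0 CPM (1.91, SE 0.054, edgeR adjusted p = 1.08e-18). GFPT2, an enzyme of the first step of hexosamine synthesis, went from 1.57, 1.45 and 1.22 CPM to 99.9, 101.9 and 96.8 CPM (6.14, SE 0.080, adjusted p = 1.22e-21). Groups were far apart for both genes. GFPT1, the other enzyme of that first step, named after its values were seen, fell by 0.20 (SE 0.052). It went from 134.1 ± 6.25 to 116.7 ± 6.37 CPM (SD, n = 3). These values are not corrected for transcript length, so the levels of GFPT1 and GFPT2 were not ranked. PGM3 and PGM1, phosphoglucomutases of the hexosamine and glucose branches, rose by 1.47 (SE 0.051) and 1.71 (SE 0.053). HK2, a hexokinase, fell by 1.34 (SE 0.048).

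Matrix proteins that bind hyaluronan or its complexes form a list of 19 genes, of which 17 were tested. Rises and falls numbered 6 each, 5 genes were not called, and the median was -0.04. These shares are near those of all tested genes, 36.3% risen and 37.5% fallen. BGN, the proteoglycan biglycan, rose by 5.66 (SE 0.060) to 1263 ± 21.0 CPM, and PTX3, a pentraxin of hyaluronan-rich matrix, by 6.44 (SE 0.076, or 7.05 after subtraction of the kept share) to 31.7 ± 1.26 CPM (SD, n = 3). BCAN, the proteoglycan brevican, rose by 4.46 (SE 0.17) to 1.93 ± 0.102 CPM. VCAN, the hyaluronan-binding proteoglycan versican, named after its values were seen, went from 4.52, 4.32 and 4.29 CPM to 1183, 962.3 and 931.7 CPM (7.87, SE 0.11, edgeR adjusted p = 3.74e-13). After subtraction of the kept share its log2 fold change was 11.83. TNFAIP6, which transfers protein chains onto hyaluronan, went the other way, from 79.6, 84.6 and 82.7 CPM to 20.7, 20.9 and 20.2 CPM (-2.00, SE 0.050, adjusted p = 1.11e-19). FBLN1, the matrix protein fibulin 1, fell by 1.70 (SE 0.053).

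Other hyaluronan receptors mostly rose from low levels. Of 9 genes 7 were tested, 5 of them risen, 1 fallen and 1 not called. Of all tested genes 36.3% rose and 37.5% fell. The median of the 7 receptor genes was 2.60. TLR4 and TLR2, innate immune receptors reported to sense hyaluronan fragments, rose by 7.48 (SE 0.096) and 5.19 (SE 0.12) to 23.3 ± 1.34 and 12.3 ± 0.242 CPM (SD, n = 3). SUSD5, which carries a link domain, rose by 6.39 (SE 0.070). After subtraction of the kept share TLR4 was at 9.28 and SUSD5 at 6.98. LAYN (layilin) rose by 1.07 (SE 0.055). C1QBP, a mostly mitochondrial protein also known as a hyaluronan-binding protein, fell by 1.86 (SE 0.048). LYVE1, the receptor of lymphatic vessels, was too low to be tested.

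Among the remaining breakdown genes, 5 of 8 with a row were tested, of which 4 rose and 1 fell. HEXA, a lysosomal hexosaminidase gene, rose by 0.71 (SE 0.047) and MANBA, a lysosomal mannosidase gene, by 3.52 (SE 0.055). The glucuronidase gene GUSB, whose enzyme removes terminal glucuronic acid from fragments, fell by 0.37 (SE 0.050). Over these 4 lists, 43 genes were tested, of which 25 rose and 12 fell, beside 36.3% and 37.5% of all tested genes. With total counts only these were 24 and 14, beside 7370 risen and 14949 fallen among all 28485.

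**Figure D4:**
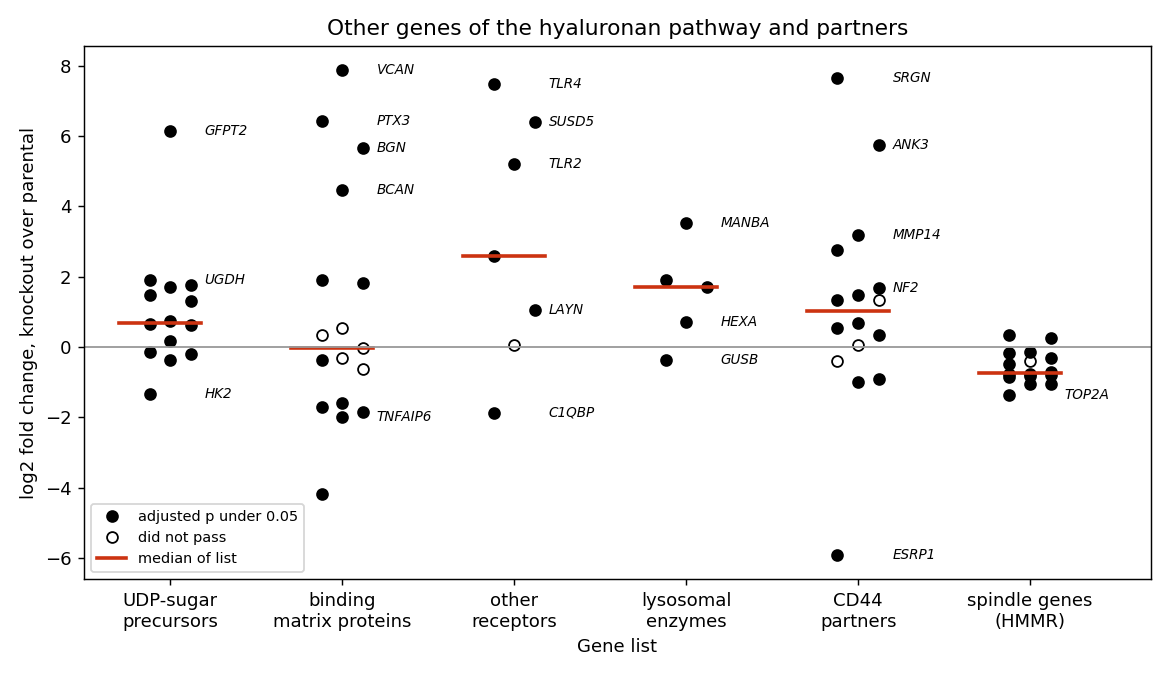
Log2 fold change, knockout over parental, of each tested gene in 6 lists. Filled points have an edgeR adjusted p under 0.05, open points did not pass, and red lines mark list medians, from -0.74 for spindle genes to 2.60 for other receptors.

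The genes most like each member over the 6 libraries were found by likeness, which was the root mean square difference of centred log2 CPM among 11469 genes of at least 5 CPM. For CD44 the closest were the chemokine gene CXCL12 (0.0255), THBS1, encoding thrombospondin 1 (0.0275), and COL3A1, a collagen chain (0.0329). For CEMIP they were the collagen receptor ITGA11 (0.0185), PALM2AKAP2 (0.0208) and DYSF, encoding dysferlin (0.0239). The genes closest to HMMR were TGS1 (0.0364), MNS1 (0.0380) and TBC1D15 (0.0417), and those closest to HAS3 were PLEKHO2 (0.0166), RCAN1 (0.0196) and WASF3 (0.0206). With 2 groups, this measure mostly ranks genes by how close their fold change is to the member's.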

How the data were processed

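The authors deposited 1 table of estimated counts per gene for 3 parental and 3 knockout libraries. The submitters' processing notes name kallisto 0.48.0 and the build hg38. For the annotation release and the step from transcripts to genes, the sources used here say nothing. Per the labels' protocols, RNA was poly(A) enriched and libraries were made with a kit for which no strand setting is stated, so overlapping and antisense genes may share reads.

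After rounding, edgeR 4.0.16 under R 4.3.3 was fitted (filterByExpr with a minimum count of 10 and a total of 15, TMM factors, robust quasi-likelihood fit, genotype as the only term). All 10 members passed the filter. The SE is the size of the log2 fold change divided by the square root of F. limma 3.58.1 (voom) and DESeq2 1.42.0 were alternatives. Exon overlaps and lengths are from GENCODE release 29, and promoters from RefSeq. Single values were compared by exact permutation over libraries. The steps were tested on simulated data in which few genes changed, up and down alike. Calls were made for 46 of 50 genes changed 4-fold and 36 of 50 changed 2-fold. They were made for 21 of 50 changed 1.5-fold, 16 of 50 changed 1.2-fold and 1 of 28285 unchanged genes. Far more genes were called in the real libraries, so the simulation does not check the scaling. Reads carry no molecular identifiers, so floors cover counting error only. Replicate pairs within a genotype differed beyond sampling noise (chi-square per degree of freedom from 11.1 to 78.1). Kept shares compare the mean raw counts of the genotypes.

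The members and lists were chosen with earlier results of these data known. All members are described. From each other list at most 5 genes of at least 1 CPM with the smallest adjusted p are named, besides genes that share exons or a promoter with a member and those said to be named after their values were seen. Some genes that this rule would name are not reported here.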

Additional observations from a re-analysis of the deposited data

How the results depend on the processing

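The direction of all 10 members was the same under every alternative in which they were tested. The calls of HAS2, HAS3, CD44, HMMR, HYAL2 and CEMIP also held in each. With total counts only, 5 members rose and 2 fell, in place of 8 and 1: HYAL1, HYAL3 and CEMIP2 were lost and HAS1 passed as lower. Over the alternatives HYAL3 ranged from 0.14 to 0.66 and CEMIP2 from 0.11 to 0.61. Scalings also moved the balance of all calls, 49.1% of which were rises with TMM factors, 33.0% with total counts only and 40.5% with upper quartile factors. A filter at a mean of 1 CPM left 13043 calls over all genes in place of 21015, since fewer genes were tested, and HAS1, HAS2 and HYAL1 were not among them. Subtraction of the kept share raised CD44 to 12.18 and CEMIP to 11.02. For rises as large as these it could only enlarge them, so it does not check their direction.

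The replicate numbers of the labels did not pair the libraries: correlations of same-numbered deviations were -0.18, 0.0014 and 0.045. A fit with a replicate block gave calls for 20418 genes, with 8 members risen and 1 fallen. Leaving out each library in turn also gave 8 and 1, with 20190 to 21414 calls over all genes, and a gain of 9.26 to 10.0 percentage points in the HAS2 share.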

Other observations

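Genes whose products bind CD44, shed it or regulate its splicing were examined as a further list. Of these 16 genes 10 rose and 3 fell, and 3 were not called. The median of the list was 1.02 on the log2 scale. Of all tested genes 73.8% passed, with 36.3% risen and 37.5% fallen. MMP14, a membrane metalloprotease known to shed CD44, went from 181.9, 168.2 and 171.0 CPM to 1594, 1622 and 1547 CPM (3.19, SE 0.053). The sheddase ADAM17 rose by 1.34 (SE 0.052). ANK3, encoding the membrane adaptor ankyrin G, rose by 5.73 (SE 0.067), and NF2, encoding merlin, which binds the CD44 tail, by 1.69 (SE 0.055). SRGN, the CD44-binding proteoglycan serglycin, rose by 7.65 (SE 0.098) to 33.5 ± 1.69 CPM (SD, n = 3), or by 10.02 after subtraction of the share kept from the other genotype. ESRP1, an epithelial splicing factor known to promote inclusion of the variable CD44 exons, was named after its values were seen. It went from 3.20, 3.67 and 3.65 CPM to 0.0430, 0.0386 and 0.0907 CPM (-5.91, SE 0.20, edgeR adjusted p = 6.49e-16), and was at -6.96 after that subtraction. Counts per gene give no measure of which CD44 exons were used.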
